A study of Caenorhabditis elegans with 12 samples.

Results

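Translation initiation factors bring a ribosome, an mRNA and the first tRNA together, and elongation factors then carry each amino acid to the moving ribosome. The genes described here are the 28 of the 40961 gene names in the deposited tables whose names mark them as such factors: eif-, eef-, ife-, iff-, ifg- and inf- names, with egl-45, a subunit gene of initiation factor eIF3. No name in the tables began with eft-, the older name of elongation factor genes. Split by name, the set held 23 initiation and 5 elongation (eef-) factor genes. The eIF5A genes iff-1 and iff-2 were counted with the initiation factors. The genes lay on chromosomes I (6), II (7), III (7), IV (2), V (3) and X (3). The choice was made by name, not by level or response.

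RNA was sequenced from gonads dissected with needles from adult Caenorhabditis elegans nematodes of the F3 generation. Their P0 ancestors had spent 48 h in water, in 0.1% dimethyl sulfoxide (DMSO, a solvent) or in 100 µM bisphenol A (BPA, a plastics monomer), and all were kept at 20 °C on the same bacterial food. Each exposure was represented by 4 libraries, called here water 1 to 4, DMSO 1 to 4 and BPA 1 to 4. The labels give no strain and no vehicle for BPA, and do not say whether the F3 gonads were pooled or whether libraries of a group come from separate populations.

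Initiation in eukaryotes proceeds in steps with their own factors. Factors eIF1, eIF1A and eIF3 sit on the small ribosomal subunit, the first pair watching over the choice of start codon. The cap of the mRNA is held by eIF4E, which eIF4G joins to the helicase eIF4A and to eIF3. In elongation, eEF1A delivers each charged tRNA while it holds GTP, and the eEF1B complex, of which eEF1G is a structural subunit, reloads it. Oocytes are loaded with mRNAs that wait to be translated, and worms have several eIF4E and eIF5A genes, some of which are known to serve germ cells.

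Values are RPKM, read numbers corrected for the length of the transcript and the size of the library, so that levels of different genes can be set side by side. In a dissected tissue, fewer cells of a type and less RNA per cell cannot be told apart. Estimated depth, a rough figure, ran from 14.1 to 33.9 M reads (M, 1e6), and water 1 stood at 14.8 M. A list of 10 germline markers summed to 3716 to 5959 RPKM in 11 libraries and to 1758 RPKM in water 1, with no marker at 0 throughout. The 4 sperm markers found summed to 46.9 RPKM in water 1 and to 13.0 to 27.1 RPKM elsewhere, and 6 intestine markers to 52.1 RPKM in water 1 against 14.1 to 609 RPKM, the highest in DMSO 3. Water 1 thus stood apart from the rest before any comparison, and results that rest on it are given with and without it.

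The plot of every library shows a wide range of levels. Of the 28 genes, 26 reached 1 RPKM in at least 4 libraries and were tested, and eif-3.B and inf-1 were listed at 0 in all 12. The elongation factor genes eef-1G, eef-1A.1 and eef-1B.1 led the set with means over 12 libraries of 15282, 5482 and 5416 RPKM. The initiation factor genes followed, from eif-3.C at 193 RPKM down to ife-1 at 0.78 RPKM. With water 1 left out, only 2 steps in this order separated neighbours without overlap between libraries: that from eef-1G to eef-1A.1 and that from eef-1B.1 to eif-3.C. All other neighbours overlapped.

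**Figure D1:**
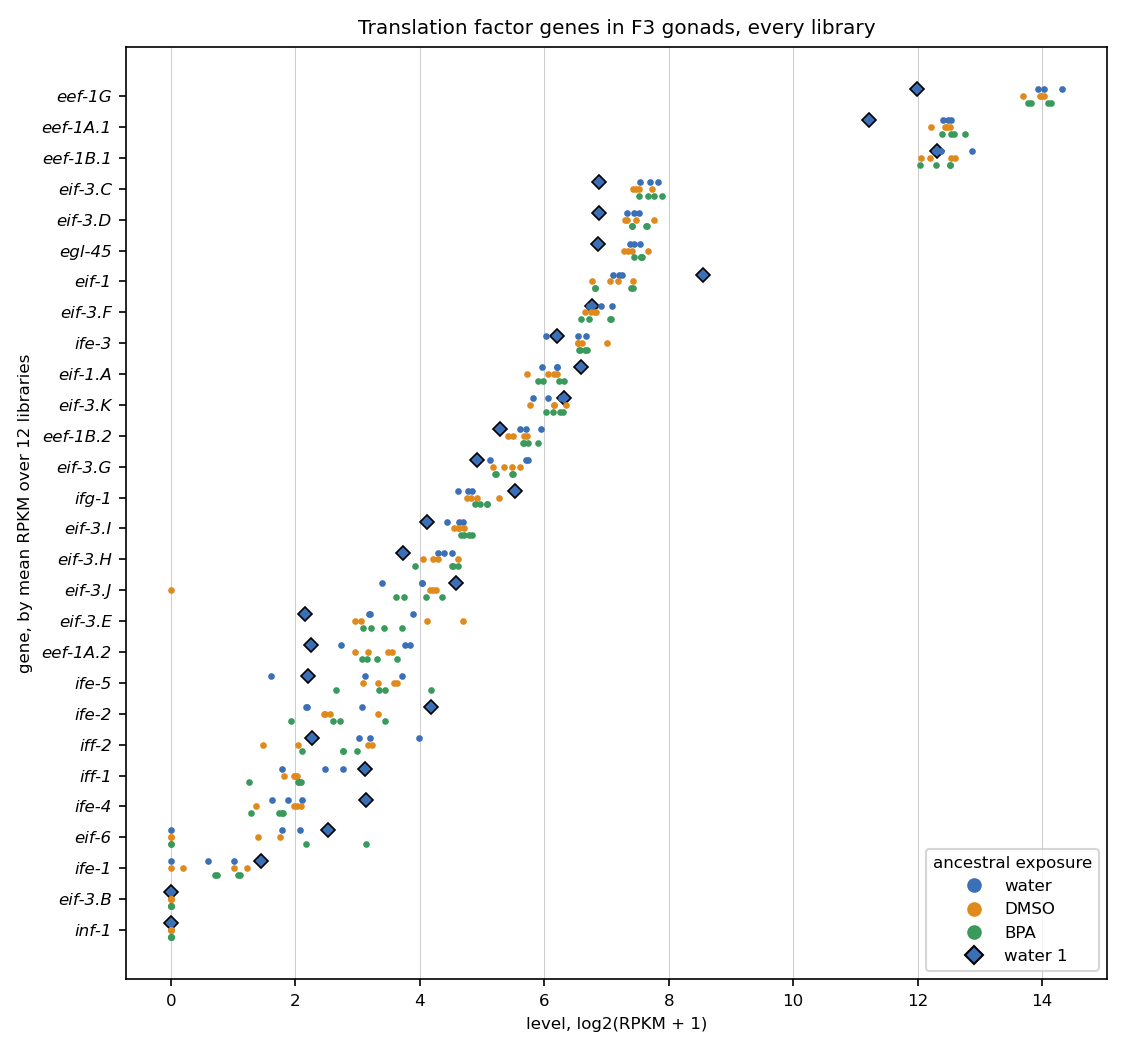
Level of each of the 28 genes in each of the 12 libraries (x axis, log2(RPKM + 1); y axis, genes by mean RPKM); points are single libraries coloured by ancestral exposure, and the outlined diamond is water 1. The 3 leading elongation factor genes stand clear of all initiation factor genes, the exposures overlap in every tested gene, and water 1 lies off the other libraries in both directions.

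Among the elongation factors, eef-1G encodes the structural gamma subunit of the exchange complex. Its level in water 1 to 4 was 4084, 20572, 15651 and 16663 RPKM, in DMSO 1 to 4 it was 13268, 16212, 16663 and 15949 RPKM, and in BPA 1 to 4 it was 14542, 17583, 13999.6 and 18204 RPKM. Water 1 was the lowest of all, and the other 11 libraries of the 3 exposures overlapped. Group means were 14242 ± 7097 RPKM in water, 15523 ± 1532 RPKM in DMSO and 16082 ± 2118 RPKM in BPA (SD, n = 4). Without water 1 the water mean was 17629 ± 2599 RPKM (SD, n = 3). In 11 libraries eef-1G ranked first or next to it among all genes and took 2.89% to 4.28% of the summed RPKM of the library, while in water 1 it ranked 8 and took 0.944%.

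The low value was shared by 3 of the 4 transcript models of the gene. Model 3 carried most of the signal and stood at 3971 RPKM in water 1, against 12312 to 19066 RPKM in the other libraries. Model 2 stood at 2.62 RPKM in water 1 and at 641 to 931 RPKM elsewhere, and model 1 at 103 against 297 to 555 RPKM. Model 4, at 7.59 RPKM in water 1, was inside the range of the others (6.33 to 22.0 RPKM). The gene F17C11.22, which the Ensembl annotation places on the opposite strand and overlapping the end of eef-1G, was at 802 RPKM in water 1 and 1219 to 2248 RPKM elsewhere. The labels do not say whether strand was kept, and without strand reads of this pair cannot be told apart. The ratio of eef-1G to F17C11.22 was 5.09 in water 1 and 9.15 to 11.8 elsewhere.

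On the log2(RPKM + 1) scale, eef-1G in water 1 lay 1.99 below the median of the other 11 libraries (departure -1.99, a ratio of 0.252), just short of the departure of 2 taken as large. Departures of at least 2 in water 1 were found in 275 genes, 3.63% of the 7570 tested, and in 0 of the 26 factor genes. Of all tested genes, 94 lay further down than eef-1G. Of the 39 genes that averaged 1000 RPKM or more, 5 lay as far down or further, eef-1G itself included. The median departure of the 39 was -0.69, while the median of all tested genes was 0.17. The gene and the library were singled out with these values known, so this is a description and carries no test. With each library rescaled to an equal sum the departure was -1.84, and with quantile normalization -1.38.

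The charged-tRNA carrier eEF1A has a pair of genes of very unequal level. For eef-1A.1, water 1 to 4 gave 2393, 5746, 5935 and 5425 RPKM, DMSO 1 to 4 gave 5704, 5567, 4733 and 5908 RPKM, and BPA 1 to 4 gave 5913, 6968, 5356 and 6139 RPKM. Water 1 was again lowest, by a departure of -1.26, and the exposures overlapped. The paralog eef-1A.2 was at 3.78, 13.3, 12.5 and 5.66 RPKM in water, 10.7, 6.75, 10.2 and 7.97 RPKM in DMSO and 11.4, 7.37, 8.97 and 7.93 RPKM in BPA, each in library order. The ratio of eef-1A.1 to eef-1A.2 was 431 to 958 over the 12 libraries, with water 1 inside that range at 633. Both entries were thus low together there. Whether 50 bp reads tell these paralogs apart was not tested.

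The exchange factor gene eef-1B.1 did not share the low value of its partners. It stood at 5113, 4950, 5344 and 7474 RPKM in water 1 to 4, at 4253, 5945, 4715 and 6203 RPKM in DMSO 1 to 4 and at 4224, 5860, 5025 and 5888 RPKM in BPA 1 to 4. Water 1 lay amid the others, with a departure of -0.06 that was 0.15 after rescaling to an equal sum and 0.82 with quantile normalization, and water 4 was highest. The ratio of eef-1G to eef-1B.1, subunits of a single complex, was therefore 0.799 in water 1 and 2.23 to 4.16 in the other libraries. The ratio of eef-1B.1 to eef-1A.1 was 2.14 in water 1 and 0.714 to 1.38 elsewhere. A further exchange factor gene, eef-1B.2, was far lower, at 38.3, 51.1, 60.6 and 48.1 RPKM in water, 44.4, 50.2, 41.5 and 51.8 RPKM in DMSO and 50.1, 58.6, 49.7 and 52.4 RPKM in BPA. Water 1 was its lowest library.

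The start codon factor genes went the other way in water 1. Factor eIF1 is encoded by eif-1, which was at 374, 152, 136 and 146 RPKM in water, 144, 171, 108 and 132 RPKM in DMSO and 112, 167, 112 and 171 RPKM in BPA. Water 1 stood well above the other 11, which overlapped between exposures, and its coefficient of variation was 44.3% over 12 libraries and 16.7% without it. Most of the excess lay in 1 of 3 transcript models: model 1 was at 293 RPKM in water 1 and 0 to 111 RPKM elsewhere. Model 2 was also highest there, at 20.1 against 8.56 to 18.9 RPKM, while model 3 at 61.0 RPKM was inside the range of the others (48.6 to 149.8 RPKM). Its partner eif-1.A was at 95.8 RPKM in water 1 and 51.8 to 78.7 RPKM in the others.

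The scaffold eIF3 was represented by 11 genes, 10 of them tested, with means of 10.5 to 193 RPKM. In 7 of these 10 genes water 1 was below every other library, and in 1, eif-3.J, it was above. The highest, eif-3.C, was at 117, 207, 227 and 185 RPKM in water, 176, 170, 184 and 212 RPKM in DMSO and 216, 203, 182 and 237 RPKM in BPA. Its locus also holds T23D8.3, which stood at 66.1 RPKM in water 1, 35.7 RPKM in DMSO 2, 13.7 RPKM in DMSO 1, 2.62 RPKM in water 2 and 0 in the other 8. Summed over the locus, water 1 stood at 183 RPKM, inside the range of 182 to 237 RPKM of the other libraries, so the low eif-3.C value there went with a high value of its neighbour.

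The largest eIF3 subunit is encoded by egl-45, named for an egg-laying defect of its mutants. It was among the steadiest, at 116, 184, 174 and 164 RPKM in water, 168, 155, 162 and 203 RPKM in DMSO and 188, 187, 172 and 188 RPKM in BPA. Without water 1 its coefficient of variation was 8.11%, against 13.0% with it. Less abundant was eif-3.I, at 16.2, 20.7, 24.8 and 23.6 RPKM in water, 25.1, 22.4, 23.8 and 23.4 RPKM in DMSO and 26.7, 27.5, 24.2 and 25.3 RPKM in BPA. Its BPA libraries overlapped those of water through BPA 3 alone. For eif-3.H, water gave 12.3, 22.0, 18.7 and 19.9 RPKM, DMSO 23.5, 17.5, 15.5 and 18.5 RPKM and BPA 22.1, 23.6, 14.2 and 22.0 RPKM, with water 1 lowest and BPA 3 next. The most variable was eif-3.E, at 3.46, 8.16, 8.12 and 13.8 RPKM in water, 24.9, 6.73, 7.33 and 16.3 RPKM in DMSO and 9.68, 7.52, 12.1 and 8.31 RPKM in BPA. High and low libraries of it lay side by side within DMSO. The remaining tested subunit genes eif-3.D, eif-3.F, eif-3.G and eif-3.K had means of 173, 114, 41.1 and 69.8 RPKM and coefficients of variation of 11.8% to 17.6%.

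The gene eif-3.J encodes a loosely bound subunit, known from yeast and human cells to act in ribosome recycling. It was at 23.0, 9.45, 15.4 and 15.4 RPKM in water, 16.8, 17.5, 0 and 18.2 RPKM in DMSO and 16.1, 11.24, 12.4 and 19.5 RPKM in BPA. DMSO 3 alone was listed at 0, and its neighbour at the same locus, Y40B1B.8, was there at its highest, 58.9 RPKM. The demethylase gene spr-5, also at this locus, was listed at 0 in water 3 and DMSO 1 and at 0.63 RPKM in DMSO 3, while Y40B1B.8 stood at 52.1, 49.4 and 58.9 RPKM in those libraries and at 17.9 to 40.03 RPKM in the other 9. The sum over the locus varied less, from 59.6 RPKM in DMSO 3 to 98.6 RPKM in DMSO 4.

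**Figure D2:**
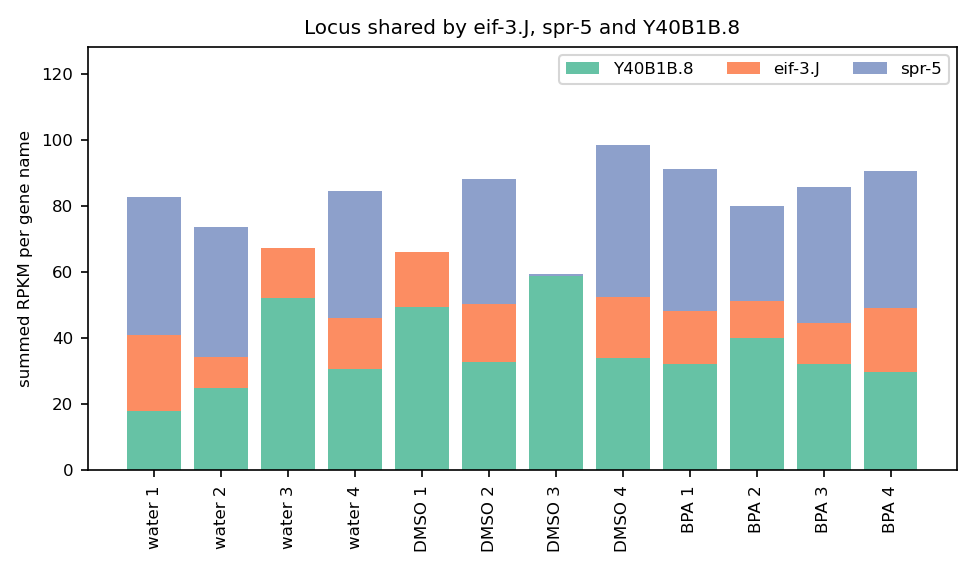
Summed RPKM (y axis) of the 3 gene names at the locus of eif-3.J in each library (x axis), stacked. In DMSO 3 the value lies almost wholly under Y40B1B.8, with eif-3.J at 0 and spr-5 at 0.63 RPKM, and in water 3 and DMSO 1 spr-5 is at 0.

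Both genes listed at 0 in every library also lay at shared loci. The eIF3 scaffold subunit gene eif-3.B shares its locus with tbc-20, which stood at 85.6 to 123 RPKM. The gene of the helicase eIF4A, inf-1, shares its locus with byn-1, at 132 to 291 RPKM, and with coq-2, at 0.93 RPKM or below. An entry of 0 can be a failed estimate in such tables, and here it is given only as listed. In all, 8 of the 28 genes lay at loci with several gene names and 20 alone.

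The cap-binding eIF4E family differed in level by more than 100-fold. The most abundant was ife-3, the worm gene most like eIF4E of mammals, at 73.0, 63.9, 91.9 and 100.3 RPKM in water, 92.3, 92.6, 96.1 and 127.5 RPKM in DMSO and 99.5, 94.3, 101.8 and 93.6 RPKM in BPA. Water 2 and water 1 were lowest, DMSO 4 was highest and the rest lay close. The signal of ife-3 was held by 3 of 6 transcript models in 11 libraries, but in DMSO 4 it was spread over all 6, at 27.6, 6.51, 27.4, 33.7, 28.4 and 3.92 RPKM. The gene ife-5 was at 3.61, 12.1, 2.04 and 7.70 RPKM in water, 11.4, 9.08, 11.02 and 7.48 RPKM in DMSO and 9.17, 17.1, 5.28 and 9.89 RPKM in BPA, with the exposures overlapping.

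The gene ife-2, known mainly from somatic tissue, was at 17.2, 3.52, 7.41 and 3.55 RPKM in water, 9.003, 4.52, 4.89 and 4.54 RPKM in DMSO and 5.08, 5.59, 9.87 and 2.81 RPKM in BPA. Water 1 was highest. The cap-binding relative ife-4 was at 7.74, 2.10, 3.29 and 2.69 RPKM in water, 3.08, 2.93, 3.25 and 1.57 RPKM in DMSO and 2.46, 2.34, 2.50 and 1.45 RPKM in BPA, again with water 1 highest. The lowest of the family was ife-1, whose protein is known from germ granules and sperm development, at 1.73, 0.51, 0 and 1.01 RPKM in water, 1.02, 1.32, 0.14 and 0.000018 RPKM in DMSO and 1.11, 0.63, 1.16 and 0.67 RPKM in BPA. In 3 of the 5 eIF4E genes water 1 was above every other library, and in 0 was it below. The bridging factor eIF4G, ifg-1, was at 45.2, 23.4, 27.5 and 26.4 RPKM in water, 37.8, 29.4, 26.03 and 27.3 RPKM in DMSO and 32.6, 30.1, 28.7 and 32.7 RPKM in BPA. Water 1 stood above all, while the cap-binding gene ife-3 was near its low end there, and the ratio of ife-3 to ifg-1 was 1.61 in water 1 and 2.44 to 4.66 elsewhere.

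Factor eIF5A eases the joining of amino acids at difficult stretches such as runs of proline. Of its genes, iff-1 is known from germ cells and iff-2 from the soma, and both were listed at low values here. Whether such entries reflect low RNA or the estimation of values was not tested. For iff-1, water gave 7.64, 2.43, 4.58 and 5.80 RPKM, DMSO 2.94, 2.996, 2.51 and 3.07 RPKM and BPA 3.15, 1.39, 3.13 and 3.27 RPKM. Of the water libraries, 3 were above all DMSO and BPA libraries and water 2 was below most of them. For iff-2, water gave 3.81, 8.18, 14.9 and 7.16 RPKM, DMSO 7.93, 1.78, 8.38 and 3.12 RPKM and BPA 5.80, 5.78, 3.32 and 6.91 RPKM. Its 2 transcript models alternated: in the 4 libraries water 1, DMSO 2, DMSO 4 and BPA 3, model 1 was at 0.07 RPKM or below and model 2 at 1.74 to 3.74 RPKM. Summed over both models, iff-2 was at 1.78 to 3.81 RPKM in those 4 and at 5.78 to 14.9 RPKM in the rest, without overlap. The part of this division in the differences between exposures was not tested. Factor eIF6, which keeps the large ribosomal subunit from joining too early, has the gene eif-6, at 4.73, 2.46, 0 and 3.203 RPKM in water, 1.62, 2.36, 0 and 0 RPKM in DMSO and 3.52, 7.82, 0 and 0 RPKM in BPA. Its locus holds 4 other gene names and summed to 101 RPKM in water 1 and 43.4 to 68.9 RPKM elsewhere.

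**Figure D3:**
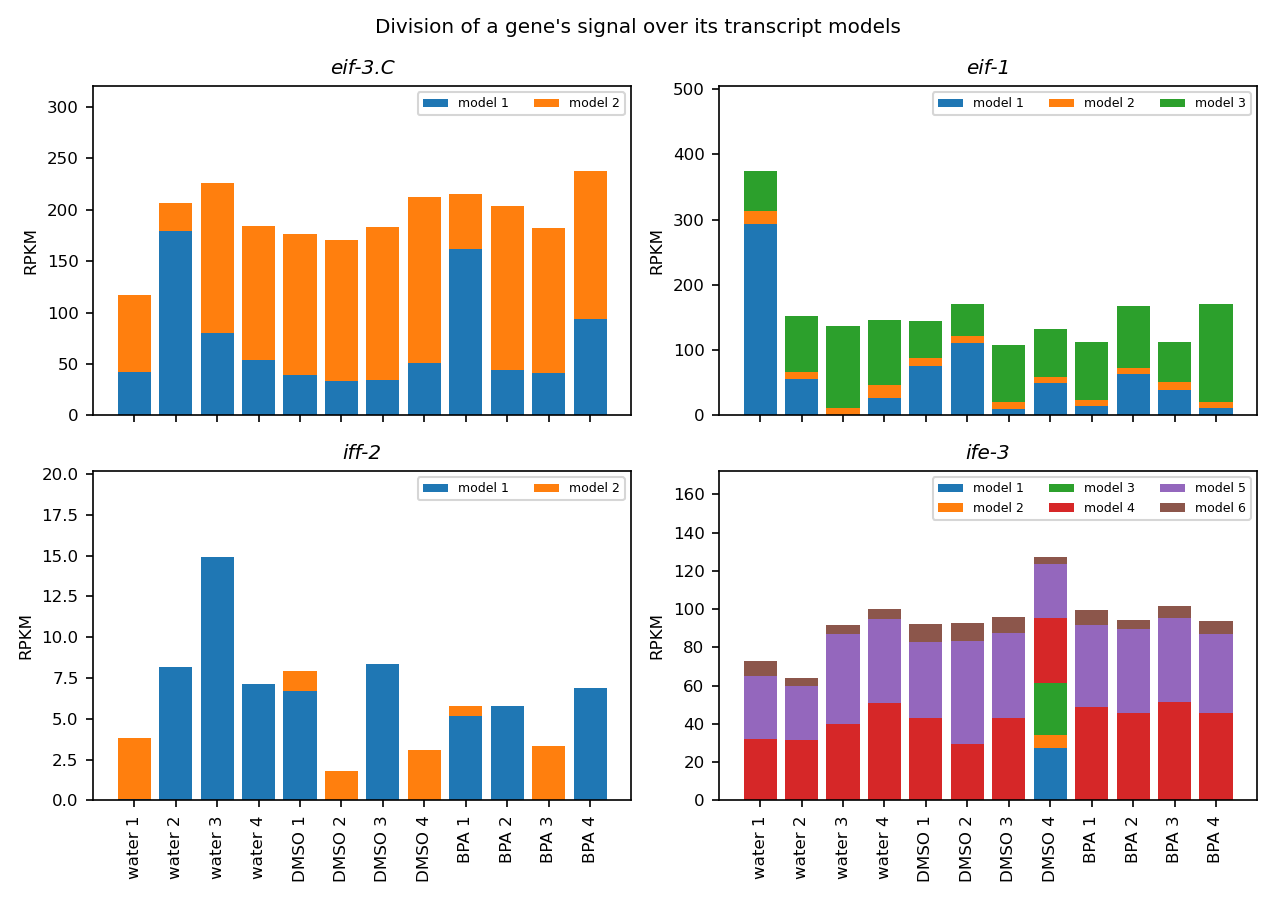
RPKM (y axis) of 4 factor genes in each library (x axis), stacked by transcript model. For eif-3.C the division over models changes while the sum changes little, as in water 2 (179 RPKM in model 1, 27.1 RPKM in model 2) against DMSO 3 (34.6 and 149 RPKM). For iff-2 the sum changes too, and is lower in the libraries whose signal lies under model 2. In eif-1, model 1 stands out in water 1.

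Over all 26 tested genes, water 1 was below the range of the other libraries in 11 and above it in 8, where 20.9% and 32.7% of all tested genes were. With libraries rescaled to an equal sum the counts were 9 and 9, and with quantile normalization 11 and 7. By role, both eEF1A genes, eef-1G, eef-1B.2 and 7 eIF3 genes (6 after rescaling to an equal sum) made up the first group, and eif-1, eif-1.A, 3 eIF4E genes, ifg-1, iff-1 and eif-3.J the second. The median size of the departure was 0.68 (log2) for the factor genes in water 1 and 0.10 to 0.29 in the other libraries, and 0.56 for all genes in water 1. The summed RPKM of the 28 genes was 12887 in water 1, 2.98% of the library, and 24474 to 32518 elsewhere, 5.34% to 6.77%. The initiation factor genes alone summed to 1254 RPKM in water 1, inside the range of 1057 to 1354 RPKM of the others, while as a share of the library they were at 0.290% in water 1 and 0.221% to 0.273% in the others. The lower sum of the 28 genes was thus one of elongation factor genes. Water 1 also had the lower germline marker sum and higher sperm marker sum given above, and their part in these departures was not tested. Of the 4 sperm markers found, 1 passed the filter. Its sums of gonadal sheath, muscle, hypodermis and neuron markers were inside the range of the other libraries, as for sheath at 103 against 62.8 to 145 RPKM.

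**Figure D4:**
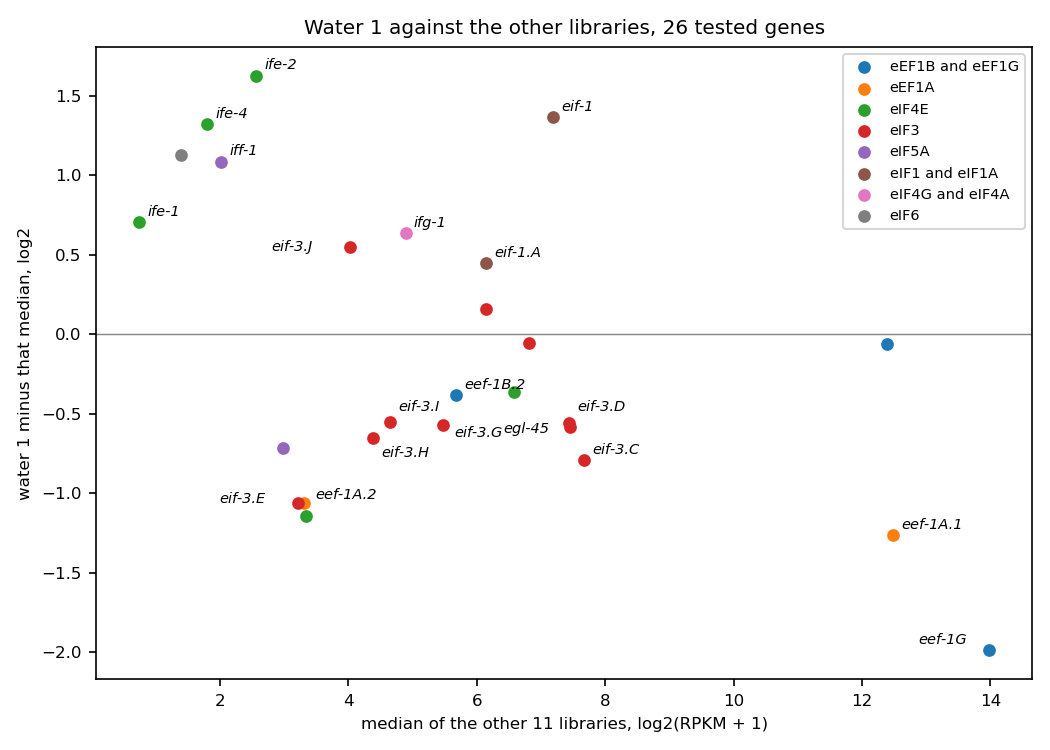
Departure of water 1 from the median of the other 11 libraries (y axis, log2) against that median (x axis, log2(RPKM + 1)) for the 26 tested genes, coloured by role; names mark genes for which water 1 was outside the range of the others. The eEF1A genes, eef-1G and most eIF3 genes lie below 0, and eif-1 at 1.37, ife-2 at 1.63 and ife-4 at 1.32 lie above it.

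BPA was compared with DMSO and with water to ask whether exposure of the P0 generation left a difference in F3 gonads. Among the 26 tested factor genes, limma called 0 at an adjusted p under 0.05, where 0.0264% of all tested genes were called (2 of 7570). At an unadjusted p under 0.05 it counted 0 factor genes and 66 of all genes (0.872%). That share is below the 0.05 expected with no difference at all, so a count of 0 says little about small differences. In 0 factor genes did the BPA and DMSO libraries fail to overlap, where 1.08% of all genes did not overlap. Differences ranged from -0.34 (log2, eif-3.E) to 0.80 (eif-3.J, where DMSO 3 is at 0), with 18 of 26 above 0 and a median of 0.06. Over all genes the median was 0.02 and 55.5% were above 0. Of the positive differences that of eef-1B.2 had the smallest p: BPA averaged 52.7 ± 4.09 RPKM and DMSO 47.0 ± 4.84 RPKM (SD, n = 4), a difference of 0.17 (SE 0.14, limma adjusted p = 1). Of the negative ones it was eif-3.E, at -0.34 (SE 0.43, limma adjusted p = 1), which was -0.01 without DMSO 1, the library in which this gene was highest, and -0.60 without DMSO 2. For eef-1G the difference was 0.05 (SE 0.60, 95% confidence interval -1.27 to 1.36), and with water 1 left out of the shared spread the interval was -0.76 to 0.86 (SE 0.37). In 19 of the 26 genes the interval lay between -1 and 1, and in the other 7 it reached beyond. Those limits are a doubling or halving of RPKM + 1, so in low genes RPKM itself could change by more.

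Set against water, BPA gave the same count: limma called 0 of 26 factor genes, where 0.0132% of all genes were called (1 of 7570). At an unadjusted p under 0.05 it counted 1 factor gene and 205 of all genes (2.71%). In 0 factor genes were the libraries free of overlap, where 2.02% of all genes were. Differences ran from -0.67 (iff-1) to 0.75 (ife-5), with 15 above 0 and a median of 0.08, beside a median of -0.01 and 48.2% above 0 over all genes. The 1 gene was iff-1, the germ cell eIF5A gene, with means of 2.74 ± 0.897 RPKM for BPA and 5.11 ± 2.19 RPKM for water (SD, n = 4), a difference of -0.67 (SE 0.29, limma adjusted p = 0.987). Without water 1 that difference was -0.48 (interval -1.11 to 0.15), and it no longer had an unadjusted p under 0.05. Of the positive differences that of eif-3.I had the smallest p, at 0.28 (SE 0.14, limma adjusted p = 0.987) and at 0.17 without water 1. For eef-1G the difference was 0.39 (SE 0.60, interval -0.92 to 1.71), and without water 1 it was -0.13 (interval -1.01 to 0.74).

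DMSO was compared with water for ancestral exposure to the solvent, which cannot be told apart here from other differences between the groups' populations. Here too limma called 0 of 26 factor genes, where 0.0132% of all genes were called (1 of 7570). It counted 0 factor genes and 129 of all genes (1.70%) at an unadjusted p under 0.05. Libraries were free of overlap in 0 factor genes, where they were in 0.885% of all genes. Differences ran from -0.85 (eif-3.J, where DMSO 3 is at 0) to 0.75 (ife-5), with 13 of 26 above 0. The positive difference with the smallest p belonged to ife-3, with means of 102 ± 17.03 RPKM for DMSO and 82.3 ± 16.8 RPKM for water (SD, n = 4), a difference of 0.32 (SE 0.15, limma adjusted p = 0.999) that was 0.20 without water 2 and 0.21 without DMSO 4. The negative one belonged to iff-1, at -0.58 (SE 0.29, limma adjusted p = 0.999) and at -0.39 without water 1. For eef-1G the difference was 0.35 (SE 0.60, interval -0.97 to 1.66), and without water 1 it was -0.18. Both comparisons with water share the water libraries, water 1 among them.

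**Figure D5:**
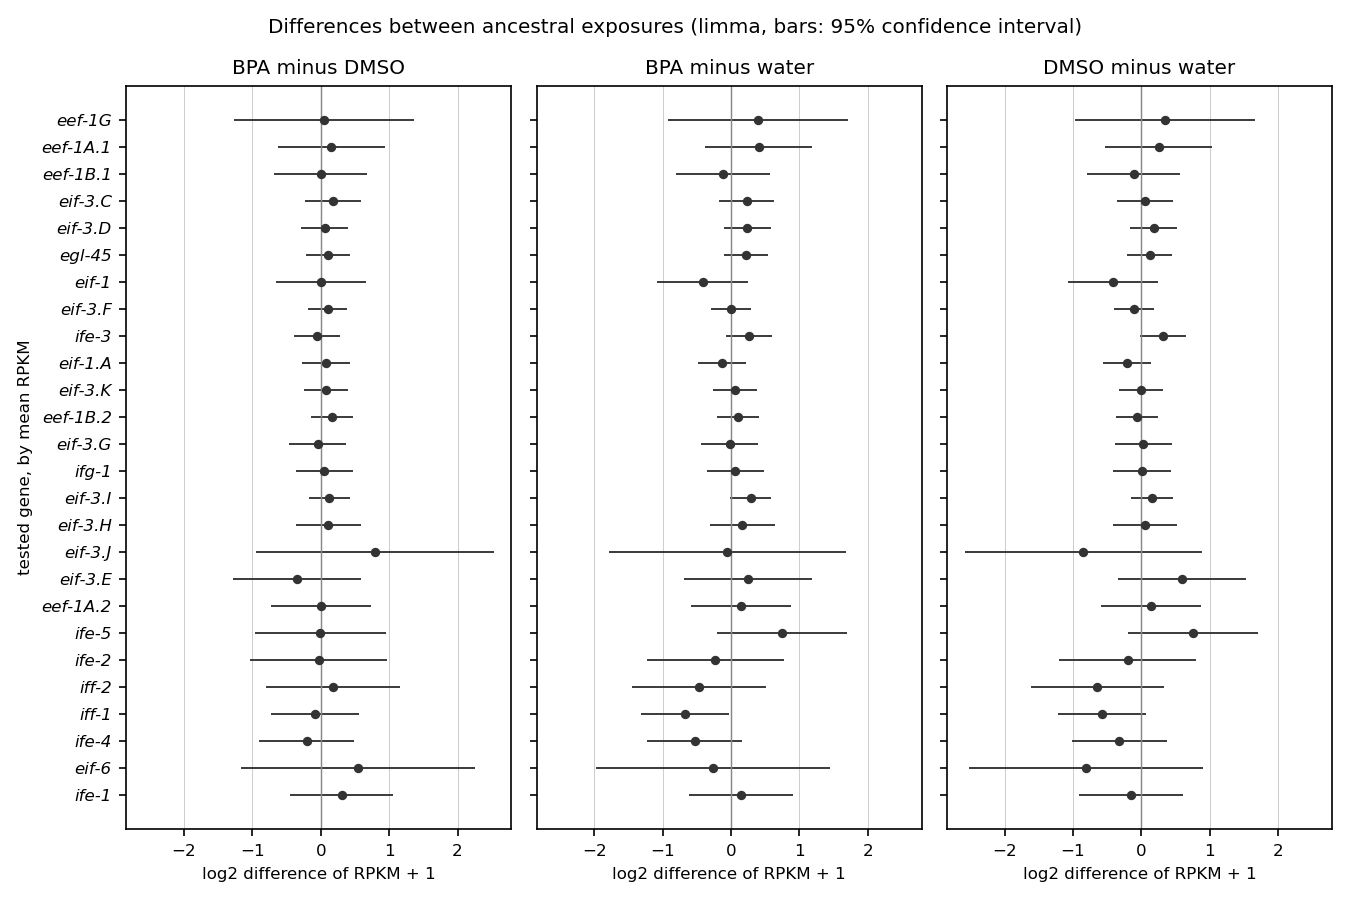
Log2 differences of RPKM + 1 (x axes) between the ancestral exposures for the 26 tested genes (y axis, by mean RPKM), from limma with all 12 libraries; bars are 95% confidence intervals. The intervals include 0 in all genes of all 3 comparisons except iff-1 in BPA minus water (-1.31 to -0.03), and are widest for eif-3.J and eif-6.

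Leaving out water 1 narrowed the intervals, from a median reach of 0.65 to either side to 0.43 for BPA against DMSO and 0.46 for both comparisons with water. Still 0 of 26 factor genes were called in each comparison, and limma called 3, 2 and 1 of all genes. At an unadjusted p under 0.05 it counted 0 factor genes in each, and 1.31%, 3.13% and 2.10% of all genes in BPA against DMSO, BPA against water and DMSO against water. With water 1 left out, 8 factor genes changed sign in BPA against water and 10 in DMSO against water. The median for DMSO against water then moved to -0.08, from 0.00, and that for BPA against water to 0.01.

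Other genes of translation were counted in the same fits. Of 28 further factors and regulators found in the tables, 26 were tested and limma called 0 in each comparison, with 0 at an unadjusted p under 0.05; ncbp-2 and erfa-3 were listed at 0 throughout. Their median differences were 0.04 for BPA against DMSO, 0.08 for BPA against water and 0.03 for DMSO against water. In water 1 the poly(A)-binding protein gene pab-1 stood at 1307 RPKM against 4858 to 11034 RPKM elsewhere, a departure of -2.23, beyond that of eef-1G. The nuclear cap-binding gene ncbp-1 was likewise low, at 106 against 242 to 519 RPKM. Higher in water 1 were ifet-1, a partner of eIF4E that represses germline mRNAs, at 318 against 101 to 155 RPKM, and the eIF5B gene iffb-1, at 138 against 33.6 to 63.7 RPKM.

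A further 9 factors were listed under sequence names and were matched through a RefSeq gene list. Of them limma called 0 in each comparison, with 0 at an unadjusted p under 0.05. They include the eIF2 alpha subunit gene Y37E3.10, whose protein is the target of stress kinases, at 119.2 RPKM in water 1 and 29.1 to 57.4 RPKM elsewhere. The eIF2A gene E04D5.1 went the other way, at 9.90 against 36.5 to 57.3 RPKM. The genes eef-2, eif-2beta, eif-2Bgamma and eif-3.L were not analysed here under those names; iftb-1 and ppp-1, counted among the 28 further genes, encode eIF2 beta and eIF2B gamma.

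Of the ribosomal protein genes 64 of 75 were tested and of the aminoacyl-tRNA synthetase genes 29 of 32, and limma called 0 of either in each comparison. At an unadjusted p under 0.05 it counted 1, 4 and 1 ribosomal protein genes and 0, 0 and 2 synthetase genes in BPA against DMSO, BPA against water and DMSO against water. In water 1 the median departure was 0.70 for ribosomal protein genes, with 13 of 64 below 0, -0.68 for synthetase genes, with 21 of 29 below 0, and -0.37 for the translation factor genes, with 16 of 26 below 0. The low values of eef-1G and eef-1A.1 in that library thus stood beside a median below 0 for synthetase genes and above 0 for ribosomal protein genes.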

How the data were processed

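The authors deposited 1 table of transcript values per library: RPKM in 11 tables and FPKM in that of BPA 1, per the file headers; for single-end reads these are the same quantity. Per the labels' protocols, cDNA was made with a SMART-Seq kit, amplified and made into Nextera XT libraries, which were read from 1 end over 50 bp. HISAT, StringTie and the build ce10 are named in the submitters' processing notes; the sources used here give no versions, annotation or filters.

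Values were summed per gene name (40961 names from 49201 transcripts; 279 unnamed transcripts, 0.879% to 2.67% of a library, were left out). The values are not counts: depth was estimated from the step that 1 read makes in low values. Of these, 25.1% to 37.4% came out whole within 0.1, too few for a count test. Values without a fixed step would in part also come out whole at this tolerance, so the depths are rough as well. The 7570 genes that reached 1 RPKM in 4 or more of 12 libraries were tested by limma 3.58.1 (R 4.3.3) on the log2(RPKM + 1) scale, in a single fit of all libraries with a variance trend, two-sided tests and Benjamini-Hochberg adjustment; calls are at an adjusted p under 0.05. Differences on this scale understate changes of low genes. Sums and figures were made in Python 3.11.15.

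Groups were taken from the sample titles. Since nothing says that a group's libraries are separate cultures, the p-values rest on a spread between samples that may be only technical. The genes and lists were chosen with earlier results of these data known. Values in every library are given for eef-1G, the smallest p in each direction of a comparison, genes with a library set apart, the highest gene of each role, the eIF4E, eIF5A and eEF1A genes, ifg-1, inf-1 and egl-45. Gene names and chromosomes were matched to a RefSeq gene list, and transcript lengths for the depth estimate came from Ensembl release 115. The build of that release differs, so no coordinates are given. Alternatives were other pseudocounts, filters, scalings, weights, sample terms, values per locus and leaving out each library.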

Additional observations from a re-analysis of the deposited data

Results flagged for a closer look

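In 10 of 78 groups of 4 libraries checked for the factor genes, 1 library lay far from its 3 companions by Dixon's criterion at 95%. Chance alone gives about 1 in 20, or 3.9 of 78, if values are normally distributed, which was not checked. Those 10 fell in 8 libraries. The criterion looks only within a group of 4. Against the median of the other 11 libraries, 10 factor genes departed by at least 1 (log2) in water 1, and 0 to 4 in each other library.

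In water 1, eef-1A.1 was low at 2393 RPKM (nearest library of its group 5425 RPKM) and eif-1 high at 374 RPKM (nearest 152 RPKM). The exchange factor gene eef-1B.1 was high in water 4 at 7474 RPKM (nearest 5344 RPKM). In BPA 3 the eIF3 genes egl-45, at 172 RPKM (nearest 187 RPKM), and eif-3.H, at 14.2 RPKM (nearest 22.0 RPKM), were low. In DMSO 3 eif-3.J was listed at 0 (nearest 16.8 RPKM), where Y40B1B.8 at the same locus was at 58.9 RPKM. Cap-binding genes were set apart in 3 libraries: ife-2 in DMSO 1 at 9.003 RPKM (nearest 4.89 RPKM), ife-3 in DMSO 4 at 127.5 RPKM (nearest 96.1 RPKM) and ife-4 in BPA 4 at 1.45 RPKM (nearest 2.34 RPKM). The germ cell eIF5A gene iff-1 was low in BPA 2 at 1.39 RPKM (nearest 3.13 RPKM). The value of eef-1G in water 1 did not meet this criterion, since the other water libraries themselves ranged from 15651 to 20572 RPKM.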

How the results depend on the processing

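The count of 0 factor genes called held in each comparison under all alternatives tried, the replicate block (sample number as a block) included. The sample numbers were not taken to pair the libraries, because the labels do not say what equal numbers share. Correlations of number-sharing pairs ran from -0.07 (water 1 with BPA 1) to 0.34 (DMSO 3 with BPA 3), and 5 of 12 were over 0.1. In 6 of 12 libraries the best match in another group had the same number. Whether libraries of equal number resemble each other was not tested. Leaving out each library in turn gave median differences of the factor genes of 0.02 to 0.13 for BPA against DMSO, 0.01 to 0.12 for BPA against water and -0.08 to 0.06 for DMSO against water. The departure of eef-1G in water 1 was between -1.84 and -1.99 under other pseudocounts, rescaling to an equal sum and values per locus, and -1.38 with quantile normalization, which was added after seeing the data and which gives every library the same spread of values.

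Counts over all genes were small throughout. For BPA against DMSO, 2 genes became 1 with a mean of at least 10 RPKM, with only the compared groups, with a pseudocount of 0.1, with the replicate block and with values per locus, 4 with numbers 1 and 3 alone and 12 with numbers 2 and 4 alone; leaving out a library gave 2 to 3. For BPA against water, 1 became 2 with array weights, 3 with only the compared groups, 0 with the replicate block, 4 with numbers 1 and 3, 16 with numbers 2 and 4 and 0 per locus; leaving out a library gave 1 to 2, with 2 without water 1, DMSO 1 or DMSO 4. For DMSO against water, 1 became 0 with a mean of at least 10 RPKM, 3 with only the compared groups, 5 with numbers 1 and 3 and 7 with numbers 2 and 4; leaving out a library gave 1 to 2, with 2 without DMSO 4. Fewer samples or genes enter several of these; otherwise the cause was not tested.

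The small differences of eef-1G changed sign. BPA against DMSO was -0.059 with numbers 1 and 3, -0.02 without BPA 4 and -0.026 without DMSO 1, in a range of -0.026 to 0.11 over single libraries left out. BPA against water was -0.049 with numbers 2 and 4 and -0.13 without water 1 (range -0.13 to 0.65). DMSO against water was -0.094 with array weights, -0.20 with numbers 2 and 4 and -0.18 without water 1 (range -0.18 to 0.60). The interval of eef-1G for BPA against DMSO, -1.27 to 1.36, was -0.76 to 0.86 without water 1, a library of neither group that enters the shared spread.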

Other observations

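Of the 26 tested factor genes, 11 (42.3%) differed between odd and even sample numbers in the same direction in all 3 exposures, where 37.1% of all tested genes did. Of these 11, 9 were lower in odd numbers, as were 783 of the 2810 such genes among all tested. What the numbers share is not stated in the labels, so these are values with no test. The 9 were eef-1G, eef-1A.1, eef-1B.1, eef-1B.2, egl-45, eif-3.C, eif-3.D, eif-3.F and eif-6, with log2 differences of -1.21, -0.11 and -0.33 for eef-1G and -0.22, -0.44 and -0.35 for eef-1B.1 in water, DMSO and BPA. The other 2, the cap-binding genes ife-2 and ife-4, were higher in odd numbers, by 1.45, 0.47 and 0.70 and by 0.86, 0.39 and 0.28. Water 1, an odd number, is part of the water value in each case.

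The gene iff-1, known for its role in germ cell proliferation, had a mean of 3.58 RPKM in these gonads, and ife-1, known from germ granules, 0.78 RPKM, while the germline markers summed to 1758 RPKM or more in every library. Both genes lay alone at their loci, so the values cannot be set against another name there. Whether the low entries reflect RNA levels or the estimation of values was not tested.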
